A study of Homo sapiens with 16 samples.

Results

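A set of 79 nuclear genes that encode subunits of the mitochondrial respiratory chain and ATP synthase was followed through RNA-seq and ribosome profiling of MDA-MB-231 breast cancer cells. Members were chosen by symbol: NDUFA, NDUFB, NDUFC, NDUFS and NDUFV genes, SDHA to SDHD, UQCR genes, COX4 to COX8 genes and ATP5 genes, without the NDUFAF and SDHAF assembly factors. The rule found 81 of 10799 transcripts in the MDA-LM2 table, which also holds the parental cells, and the same 81 of 8980 in the knockdown table. Of these, 2 are read-through transcripts (ATP5MF-PTCD1 and NDUFC2-KCTD14) and were set apart. The remaining 79 comprised 37 genes of complex I, 4 of complex II, 9 of complex III, 10 of complex IV (with NDUFA4, now counted there) and 19 of complex V. Another 9 protein-coding genes meet the rule in GENCODE but matched no listed transcript (COX4I2, COX6A2, COX6B1, COX6B2, COX7A1, COX7B, COX7B2, COX8C and NDUFA4L2), and no subunit encoded by mitochondrial DNA was among the listed transcripts.

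Complexes I and II pass electrons from NADH and succinate to ubiquinone, complex III passes them to cytochrome c, and complex IV reduces oxygen. Complexes I, III and IV pump protons across the inner mitochondrial membrane, and complex V, the ATP synthase, uses the gradient to make ATP. Most subunits are nuclear-encoded, made on cytosolic ribosomes and imported, while a small core of membrane subunits is encoded and translated inside the mitochondrion.

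Parental cells are MDA-MB-231, a triple-negative breast cancer line, and MDA-LM2 is a highly lung-metastatic derivative of it. The knockdown pair are MDA-MB-231 cells that express the CRISPR interference repressor dCas9-KRAB together with a control guide, named sgControl, or with a guide that targets HNRNPC, named sgHNRNPC. HNRNPC is a nuclear RNA-binding protein. Each of the 4 lines had 2 RNA libraries and 2 libraries of ribosome-protected footprints (RPF) made from the same lysates, 16 samples in all, and values are normalised read counts per transcript. Of the markers of the line, VIM, CD44, AXL, CAV1 and ANXA1 were abundant in parental and MDA-LM2 libraries (RNA from 1637 for CAV1 to 44870 for VIM), EPCAM was low (RNA 31.9 to 46.5), ERBB2 was present (708 to 812), and ESR1, PGR and CDH1 matched no listed transcript. RNA reads per library were 7517953 to 8193031 for MDA-LM2 and parental cells and 5141959 to 6164753 for the knockdown pair. RPF depth in reads is unknown, and the normalised RPF totals were 650736 to 679726 and 158011 to 167928. HNRNPC RNA was 2162 and 2146 in sgControl and 1147 and 1183 in sgHNRNPC, which limma fitted as -0.89 ± 0.05 (SE) on the log2 scale, with adjusted p 2.29e-35. All 79 members had means of at least 10 in RPF and in RNA in the MDA-LM2 table, against 73 in the knockdown table.

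ATP5MC1, ATP5MC2 and ATP5MC3 are shown by sequence because footprints separate them although they make the same mature protein, the c subunit whose 8 copies form the rotor ring of ATP synthase. Their precursors of 136, 141 and 142 residues share an identical stretch of 77 residues to the C-terminus, but over its 231 coding bases ATP5MC2 differs from ATP5MC1 at 27 and ATP5MC3 at 46. The lines below give the same 10 codons of that stretch from GENCODE version 44 (hg38): chr17:48895216-48895245 on the plus strand, chr12:53669237-53669266 on the minus strand and chr2:175179146-175179175 on the minus strand. Capitals mark the bases that differ from ATP5MC1, 4 in ATP5MC2 and 8 in ATP5MC3, and no run of 30 bases in the coding sequence of any of them occurred in another listed transcript.
ATP5MC1: tcccgggacattgacacagcagccaagttt
ATP5MC2: tcAAgggacatCgacacagcagccaagttC
ATP5MC3: AGcAgAgacattgaTacTgcTgccaaAttt

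Promoters of many respiratory genes are known to hold sites for NRF1, ETS-family GABP and YY1. RefSeq promoters (GRCh38.p14, 250 bases before to 50 after the start) were found for 64 of the 79 members and were searched on both strands for a core of each. A gene was counted if any promoter listed for it held the core. GCGCATGC (NRF1) was in 14 of 64 members (21.9%), in 3.64% of the 27241 other genes and in 3.05% of all 35116 promoters. CCGGAAGT (ETS) was in 12 of 64 members (18.8%), in 4.92% of other genes and in 4.14% of promoters. AAGATGGCG (YY1) was in 9 of 64 members (14.1%), in 2.11% of other genes and in 1.75% of promoters. Except in ATP5PF, these member matches began 10 to 25 bases after the start, within the transcribed part. This core holds the letters ATG, and whether they are the start codon of the gene was not examined. The matches below, in capitals, are examples of each core. UQCR11 and UQCRH are shown because their RNA was lower in MDA-LM2, SDHD because it held the NRF1 and the ETS core, and SDHB as a catalytic subunit that held the NRF1 and the YY1 core. The windows lie at chr10:7788145-7788172 (plus strand) for ATP5F1C, chr11:112086753-112086780 (plus) for SDHD, chr19:1605562-1605589 (minus) for UQCR11, chr1:46303641-46303668 (plus) for UQCRH and chr1:17054004-17054032 (minus) for SDHB. No core in these windows overlapped another, although GCGCATGC in ATP5F1C and SDHD overlapped its own reverse complement. Of the 10 members with lower RNA in MDA-LM2, 6 had a promoter in the table: 2 held the ETS core (UQCR11 and UQCRH) and 0 held the NRF1 core. A match is a description of these letters and not of a bound site.
ATP5F1C, NRF1 core: gggagcttcgGCGCATGCgcgctgaggc
SDHD, NRF1 core: agctgtgtttGCGCATGCgcgacgggtg
UQCR11, ETS core: ccaaccctcgCCGGAAGTtactgtaagt
UQCRH, ETS core: agtgtgccgcACTTCCGGccagatcgcc
SDHB, YY1 core: gtcaggagccAAGATGGCGgcggtggtcg

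Respiratory chain genes had a high footprint density in parental cells. Their median RPF level was 194 normalised counts per kilobase of coding sequence, against 29.9 for all transcripts with means of at least 10, 80.3 for 78 mitochondrial ribosomal protein genes, 69.3 for 16 genes of the citric acid cycle and pyruvate dehydrogenase, and 728 for 74 cytosolic ribosomal protein genes. The levels per kilobase ranged from 29.7 ± 1.4 (SD, n = 2) for NDUFV3, an accessory subunit of complex I, to 715 ± 35 (SD, n = 2) for COX7C, a small subunit of complex IV. Complex medians per kilobase were 137 for complex I, 157 for complex II, 193 for complex III, 275 for complex V and 419 for complex IV. In sgControl cells the order from complex III to complex IV was the same (45.4, 64.8 and 90.8), while complex II (34.9) lay below complex I (42.0). The spread within a complex was wider than the distance between most complex medians. Density also fell with the length of the coding sequence (Spearman rho -0.48 over the 79 members in parental cells and -0.56 over all matched transcripts tested), and members were short, with a median coding sequence of 423 bases against 1428 for all matched transcripts. Length and complex were not separated here, and the density takes no account of RNA level. The log2 ratio of footprint to RNA density in parental cells was also taken relative to the median of all matched transcripts tested. Its median was 0.43 for members, 0.18 for mitochondrial and -1.40 for cytosolic ribosomal protein genes, and 0.30 for the citric acid cycle genes.

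**Figure D1:**
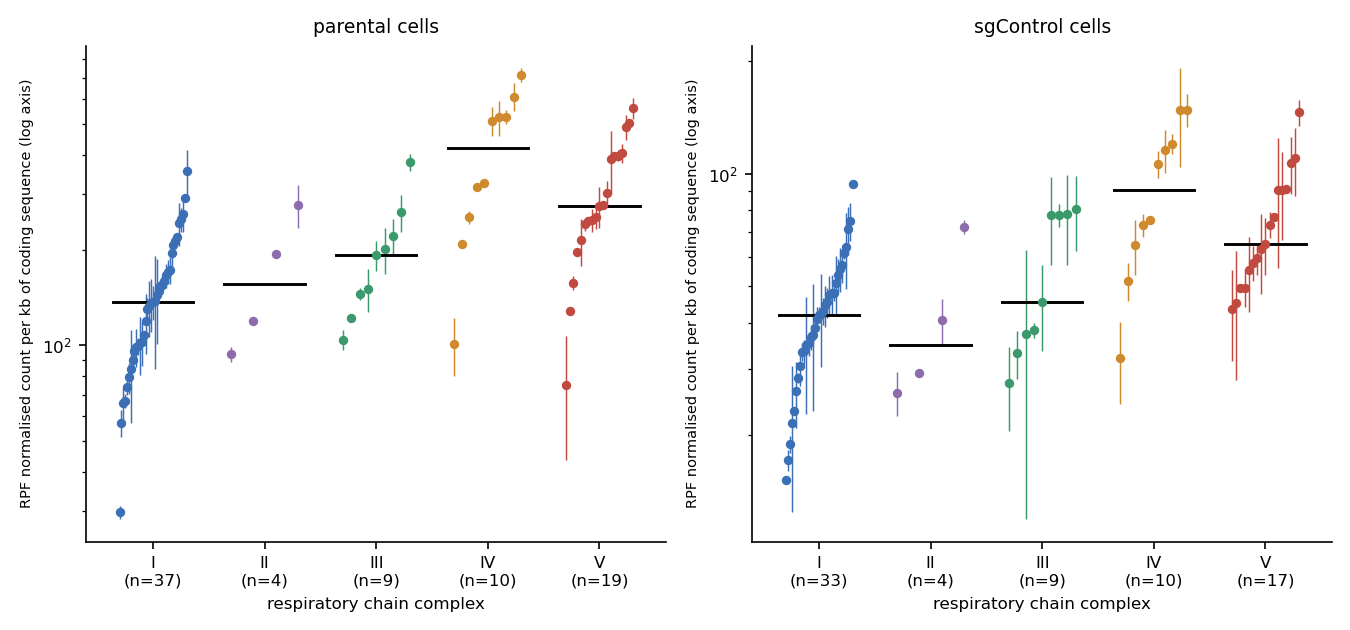
RPF level of each respiratory chain gene in parental (left) and sgControl (right) cells, by complex, in normalised counts per kilobase of coding sequence on a log axis. Points are means of 2 replicates with the SD, and bars are the medians of the complexes, of which complex IV was highest in both lines (419 and 90.8).

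ATP synthase holds unequal numbers of its subunits, so its footprints were also set against copy number. The catalytic head has 3 alpha subunits (ATP5F1A) and 3 beta subunits (ATP5F1B), and the ring has 8 c subunits. Per copy in parental cells, RPF density was 82.6 ± 1.4 (SD, n = 2) for alpha, 167 ± 5.2 for beta and 148 ± 0.54 for the c subunit summed over its 3 genes. The single-copy subunits examined ran from 129 for F6 (ATP5PF) to 561 for epsilon (ATP5F1E), with a median of 255, so alpha lay below all of them. In MDA-LM2 cells the density per copy was 87.4 ± 0.66 for alpha, 135 ± 3.4 for beta and 116 ± 4.9 for the c subunit, against a median of 232 for the single-copy subunits. The order was alpha, c subunit, beta in all 4 lines, with wide spread in sgControl (21.6 ± 3.7, 30.6 ± 6.5 and 36.7 ± 7.5, SD, n = 2), where c subunit and beta did not differ beyond it. Precursor lengths include the presequences that are cut off on import.

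MDA-LM2 was compared with its parent to ask how gene output differs in a highly metastatic line. Respiratory chain RNA was lower in MDA-LM2 for 62 of 79 members, against 5620 of all 10799 transcripts. The median log2 change was -0.19 for the members and -0.02 for all 10799 transcripts. Tested by limma over all of these, 10 members (12.7%) were lower and 0 higher at an adjusted p under 0.05, against 10.0% lower and 6.61% higher of all transcripts. The share of lower calls was thus near the background. Changes ran from -0.83 for ATP5IF1 to 0.42 for NDUFB11. An unadjusted p under 0.05 by limma was reached by 25 of 79 members and by 3507 of all 10799 transcripts. The 10 genes were NDUFA1, NDUFB2, NDUFC2 and NDUFS5 (complex I), UQCR11 and UQCRH (complex III) and ATP5F1D, ATP5MF, ATP5MG and ATP5IF1 (complex V). No member of complex II or IV was called. Median changes were -0.15 for complex I, -0.26 for II, -0.19 for III, -0.20 for IV and -0.27 for V. In bulk cultures, fewer cells that express a gene and less RNA per cell cannot be told apart.

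At the level of footprints, 7 of 79 members passed the test over 8393 transcripts. Of these, 6 (7.59%) were lower and 1 (1.27%) higher, against 7.03% and 5.00% of all tested, and the members' median change was -0.05 against -0.01. The 5 lower members of complex V were ATP5F1B, ATP5MC2, ATP5MF, ATP5MG and ATP5IF1. NDUFB2 was lower and NDUFB11 higher in complex I. Complexes II, III and IV had 0 calls at an adjusted p under 0.05, with 2, 0 and 2 members at an unadjusted p under 0.05. Over all members that count was 16 of 79, against 2065 of all 8393 tested. NDUFB2, ATP5MF, ATP5MG and ATP5IF1 were lower in RNA and in footprints, 6 members passed in RNA only and 3 in footprints only. Across the 79 genes, RNA and RPF changes had a Pearson r of 0.65 and a Spearman rho of 0.63, given as a description since genes share libraries.

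**Figure D2:**
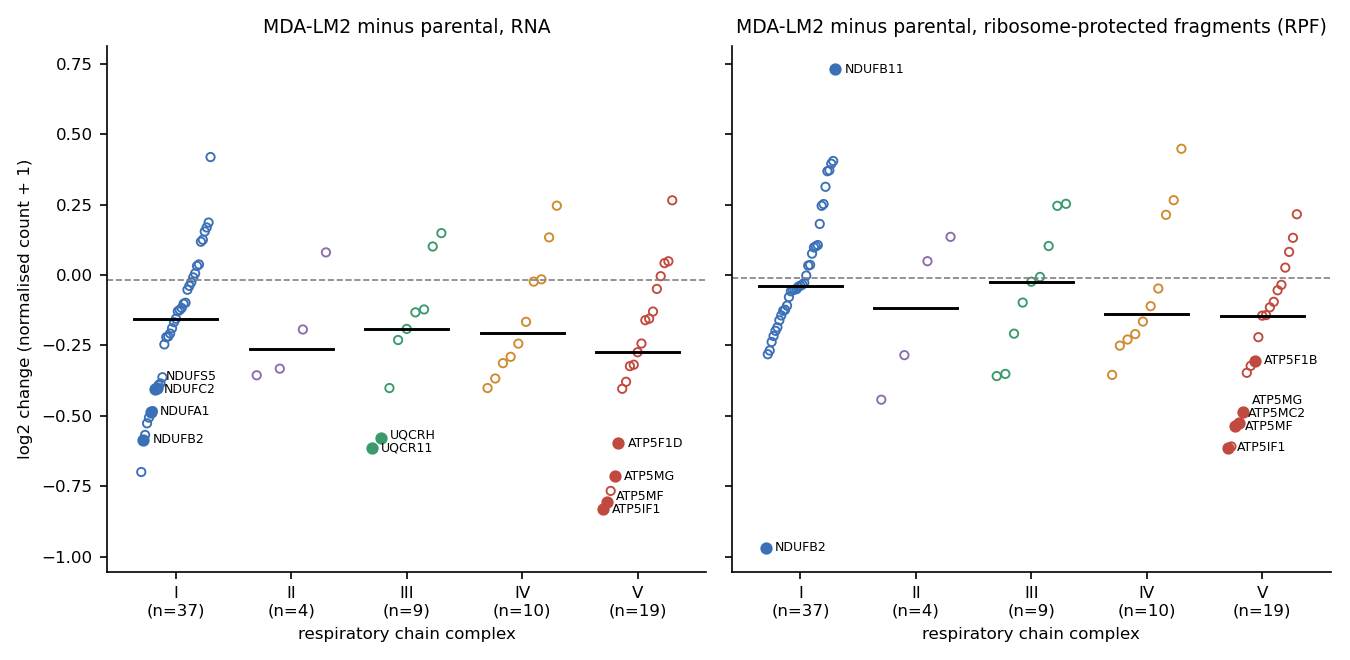
Log2 change of each respiratory chain gene in MDA-LM2 against parental cells, by complex, for RNA (left) and RPF (right). Filled points passed the limma test, black bars are complex medians and the dashed line is the median of all transcripts tested (-0.02 and -0.01). Most RNA points lie below that line in every complex.

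ATP5IF1, the inhibitory factor that blocks ATP hydrolysis by the synthase when the proton gradient fails, showed the largest fall in RNA. Its RNA was 483 and 469.7 in parental cells and 286 and 250.0 in MDA-LM2 cells. Its RPF values were 74.9 and 84.6 against 61.2 and 43.6. Both measures separated the lines without overlap, with log2 changes of -0.83 ± 0.13 (SE, adjusted p 0.0041) in RNA and -0.61 ± 0.18 (SE, adjusted p 0.022) in RPF by limma. The RPF call rested in part on MDA-LM2 replicate 2, without which the change was -0.37 (adjusted p 0.32 by limma), and it was also not called without parental replicate 2 (adjusted p 0.12). The gene lies at chr1:28236124-28238100 (hg38, plus strand).

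ATP5MF and ATP5MG encode small membrane subunits, f and g, of the part of the synthase where dimers are held together. ATP5MF RNA was 539 and 529 in parental cells and 394 and 236 in MDA-LM2 cells, and its RPF values were 109.8 and 121 against 83.2 and 75.3. ATP5MG RNA was 1985 and 1921 against 1482 and 956, and its RPF values were 120.3 and 128 against 86.3 and 90.1. For both genes every MDA-LM2 library was below every parental one, while MDA-LM2 RNA replicate 2 lay well below replicate 1. ATP5MF (chr7:99458195-99466167, minus strand) changed by -0.81 ± 0.21 in RNA and -0.54 ± 0.15 in RPF (SE, adjusted p 0.037 and 0.013 by limma). ATP5MG (chr11:118401606-118409847, plus strand) changed by -0.71 ± 0.19 and -0.49 ± 0.14 (adjusted p 0.037 and 0.019 by limma). Without MDA-LM2 replicate 2 the RNA changes were -0.44 for ATP5MF and -0.40 for ATP5MG, and both were still called. ATP5MG RNA was not called without parental replicate 1 or 2 (adjusted p 0.098 and 0.060 by limma). Both genes are uncertain in the assignment of reads, since 31.6% of ATP5MF coding positions start a run of 30 bases that is also in the read-through ATP5MF-PTCD1, and 20.1% of those of ATP5MG are shared with ATP5MGL. ATP5MF-PTCD1 itself was lower in RNA (348 and 344 against 255 and 151, log2 change -0.82, adjusted p 0.040 by limma).

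The central stalk and the head gave a mixed picture. ATP5F1D, the delta subunit of the central stalk (chr19:1241751-1244825, plus strand), had RNA of 1018 and 966 against 787 and 545, which limma fitted as -0.60 ± 0.17 (SE) with an adjusted p of 0.047. Without MDA-LM2 replicate 2 it was -0.33 and still called, and without parental replicate 1 or 2 it was not (adjusted p 0.20 and 0.11 by limma). The RPF values of 137 and 122 against 102 and 101 were also apart but missed the threshold (adjusted p 0.098). ATP5F1B, the catalytic beta subunit (chr12:56638175-56645984, minus strand), was called in RPF, with 815 and 780.2 in parental and 658 and 635 in MDA-LM2 libraries (-0.30 ± 0.09, SE, adjusted p 0.016 by limma). Its RNA values were the highest of any member, 5159.8 and 5258 against 4377 and 3541, and the difference was not called (adjusted p 0.081). ATP5F1A, the alpha subunit that alternates with beta around the head, was called in neither measure, with RPF values of 417 and 407 against 434 and 438.

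Of the c subunit genes, only ATP5MC2 passed a test, and in footprints alone. ATP5MC2 RPF was 221 and 195 in parental cells and 139 and 149 in MDA-LM2 cells, a difference of -0.53 ± 0.12 (SE) on the log2 scale with adjusted p 0.0029 by limma. Without parental replicate 1 it was -0.44 and not called (adjusted p 0.069). Its RNA overlapped between the lines, at 538 and 581 against 510.2 and 609. ATP5MC3 RPF was 166 and 173 against 143 and 128 (adjusted p 0.091), and ATP5MC1 RPF was 116 and 132 against 122 and 103, which overlap. The 3 genes share their product and not their coding bases, as the printed lines show, so their footprints are counted apart.

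In complex I, the calls were accessory subunits. NDUFB2 (chr7:140696708-140706643, plus strand) had RNA of 352 and 351 against 237 and 231 and RPF of 39.8 and 47.5 against 18.1 and 26.1. Its footprint change of -0.97 ± 0.25 (SE, adjusted p 0.0086 by limma) was the largest fall among the members, and its RNA change was -0.58 ± 0.12 (adjusted p 0.016). NDUFB11 (chrX:47142216-47144710, minus strand) was the member called higher, with RPF of 52.6 and 59.2 in parental and 114 and 76.2 in MDA-LM2 cells (0.73 ± 0.18, SE, adjusted p 0.0050 by limma). Without MDA-LM2 replicate 1 this was 0.44 and not called (adjusted p 0.23). Its RNA, at 416 and 489.7 against 634 and 575, did not overlap but was not called (adjusted p 0.063).

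NDUFA1, NDUFS5 and NDUFC2 were lower in RNA alone. NDUFA1 (chrX:119871832-119876662, plus strand), a small subunit needed for assembly of the membrane arm, had RNA of 494 and 475 against 376 and 317 (-0.49 ± 0.13, SE, adjusted p 0.039 by limma), while its RPF values of 61.7 and 62.8 against 78.1 and 70.7 lay the other way without passing the test. NDUFS5 (chr1:39026350-39034615, plus strand) had RNA of 1435 and 1320.1 against 1065 and 1019 (-0.40 ± 0.11, adjusted p 0.045). NDUFC2 (chr11:78068297-78079862, minus strand) had RNA of 534 and 505 against 389 and 395 (-0.40 ± 0.12, adjusted p 0.048), and 84.9% of its coding positions are shared with the read-through NDUFC2-KCTD14, so its reads are uncertain. The core subunits were not called. NDUFS1, the largest iron-sulphur subunit, had RNA of 433 and 471 against 453 and 474. NDUFV1, which binds the flavin that accepts electrons from NADH, had RNA of 1186 and 1105 against 1211 and 912. Both overlapped between the lines.

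Among the other electron carriers, calls were confined to complex III RNA. UQCR11 (chr19:1598922-1605473, minus strand), a small subunit at its periphery, had RNA of 1063 and 887 against 726 and 555 (-0.61 ± 0.16, SE, adjusted p 0.033 by limma) with overlapping RPF of 30.4 and 35.5 against 40.2 and 19.8. UQCRH (chr1:46303698-46316776, plus strand), the hinge protein that contacts cytochrome c1, had RNA of 1055 and 1113 against 726 and 724 (-0.58 ± 0.11, adjusted p 0.011), and 71.3% of its coding positions are shared with its copy UQCRHL. The core protein UQCRC1 (RNA 1926 and 1811 against 1783 and 1651) and the Rieske iron-sulphur protein UQCRFS1 (598 and 589.6 against 682 and 636) were not called. In complex II, SDHB, which carries the iron-sulphur clusters, had RPF of 98.8 and 103 against 78.3 and 69.6, apart but just outside the threshold (adjusted p 0.053). SDHA, the flavoprotein, had RPF of 195 and 180.4 against 181 and 208. In complex IV, COX4I1 RNA was 1945 and 1923 against 1773 and 1505, COX5A RNA was 610.2 and 655 against 887 and 634, and NDUFA4 RNA was 524 and 479 against 415 and 391, with adjusted p of 0.21, 0.33 and 0.11 by limma. COX7A2L, which helps join complexes III and IV, had RNA of 364 and 386 against 427 and 318, which overlap.

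**Figure D3:**
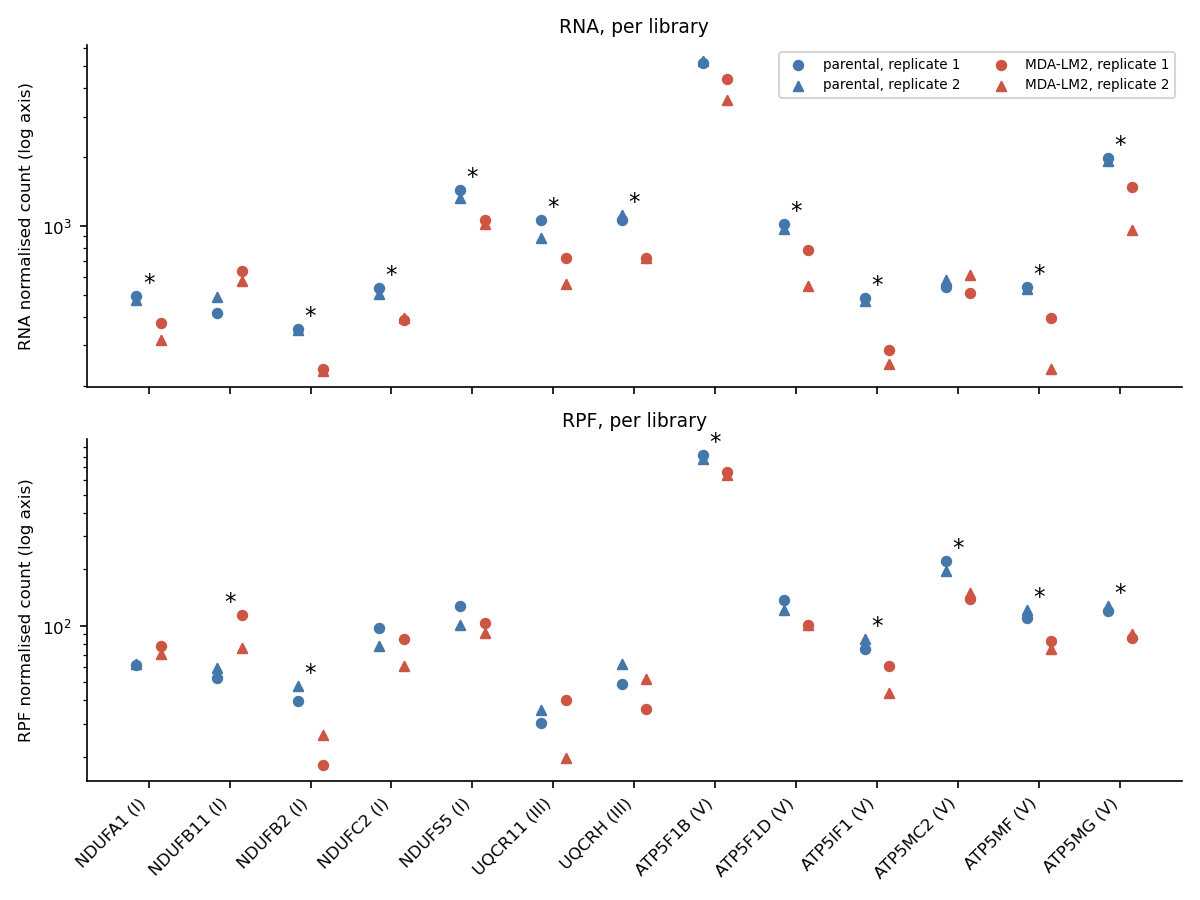
Normalised counts of the 13 respiratory chain genes that passed the test in RNA or RPF, in each parental and MDA-LM2 library, on log axes, with RNA and RPF in separate panels. An asterisk marks a gene called in that measure. NDUFB11 is the gene called higher in MDA-LM2, in RPF, and ATP5MF and ATP5MG show the distance between the MDA-LM2 RNA replicates.

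Translational efficiency (TE), the RPF change minus the RNA change, was not called for any member by limma. Of 8393 transcripts 3 passed, which is 0.0238% higher and 0.0119% lower. The members' median log2 TE change was 0.12 against 0.03 for all tested, and 62 of 79 members lay above 0, as did 4576 of all 8393 tested. An unadjusted p under 0.05 was found for 5 of 79 members and for 455 of all 8393 tested. All 9 complex III genes lay above 0, and complex medians were 0.15 for I, 0.06 for II, 0.15 for III, 0.10 for IV and 0.10 for V. The smallest unadjusted p belonged to NDUFA1 (0.74 ± 0.21, SE, p 0.0038 and adjusted p 0.73 by limma), NDUFB10 (0.95 ± 0.29, p 0.0066) and NDUFA13 (0.63 ± 0.23, p 0.016). NDUFB10 RNA was 882 and 838 against 677 and 413 while its RPF was 31.1 and 37.0 against 37.5 and 43.6. NDUFA13 RNA was 2008 and 1908 against 1641 and 1124 while its RPF was 115 and 102 against 124 and 110.1. In both, RNA was lower in MDA-LM2 and footprints were not. ATP5MC2 went the other way, with a TE change of -0.52 ± 0.19 (p 0.017, adjusted p 0.89 by limma). Logistic regression, which takes normalised counts as reads and leaves out the replicate spread, called these 4 genes (3 higher and 1 lower), against 1.01% higher and 1.14% lower of all 8393 transcripts.

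The count of RNA calls moved with the libraries used, for the members and for all transcripts. Without parental replicate 1 there were 2 members called, both lower, against 6.71% of all 10799 transcripts called in either direction. Without parental replicate 2 there were 3, all lower, against 7.88%. Without MDA-LM2 replicate 1 there were 41, of which 40 were lower, against 46.7%. Without MDA-LM2 replicate 2 there were 25, of which 23 were lower, against 31.2%. In RPF the count was 5 without parental replicate 1 or without either MDA-LM2 replicate, and 4 when parental replicate 2 was left out. No share of all transcripts is given beside these RPF counts, so they describe the members alone. With a library left out, the lone library of its line is assumed to vary like the others. The MDA-LM2 RNA replicates differed by a median of -0.17 over the members (replicate 2 minus 1, 61 of 79 below 0) against -0.01 between the parental ones, and over all matched transcripts that difference had a Spearman rho of -0.42 with the GC content of the transcript. The part of GC in the calls was measured by taking off a GC curve per library, an alternative chosen after seeing the data. It gave 13 calls (1 higher), 8 of them among the 10, with no share of all transcripts given beside them. ATP5F1D went from -0.60 to -0.24 and UQCR11 from -0.61 to -0.37, both then not called (adjusted p 0.21 and 0.059 by limma). With libraries scaled to equal totals, the median RNA change of all transcripts moved to 0.15 and that of the members to -0.02, and 4 members were called (1 higher), against 19.2% of all transcripts. The members' RPF median was then 0.00 against 0.04 for all tested, and their TE median 0.00 against -0.08.

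The change of a member was also set against that of its chromosomal neighbourhood. For each member, the median change was taken over the other tested genes that start within 10 Mb, which were 18 to 235 genes. These neighbourhood medians ran from -0.46 to 0.50 in RNA, and across the 79 members they had a Pearson r of 0.69 and a Spearman rho of 0.68 with the member's own RNA change. For RPF the values were 0.59 and 0.53. In the knockdown the neighbourhood medians spanned -0.10 to 0.04 in RNA, and r was -0.13 in RNA and -0.13 in RPF. Members that lie close together share neighbours, so these correlations are a description.

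The distance between a called gene and its neighbours differed from gene to gene. ATP5MF sits among genes with a median RNA change of -0.46 and RPF change of -0.41, NDUFB2 among genes at -0.31 and -0.28, and ATP5IF1 among genes at -0.34 and -0.30. NDUFS5, at -0.40, has neighbours at -0.38, and UQCRH, at -0.58, has neighbours at -0.39. NDUFB11, the member called higher in RPF, has neighbours at 0.50 in RNA and 0.43 in RPF, and 33.9% of its 59 neighbours were called higher in RPF. The other called members had neighbours with smaller median changes, whether or not they lay farther from them. ATP5MG had an RNA change of -0.71 among neighbours at -0.18, ATP5F1D one of -0.60 among -0.17, UQCR11 one of -0.61 among -0.17, NDUFA1 one of -0.49 among -0.11 and NDUFC2 one of -0.40 among -0.26. In RPF, ATP5MC2 was at -0.53 among neighbours at -0.18 and ATP5F1B at -0.30 among neighbours at -0.18.

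Whole chromosomes gave medians near to and far from those of their members. Chromosome 7 carries ATP5MF, NDUFA4, NDUFA5 and NDUFB2. Its 372 tested transcripts had a median of -0.38 in RNA and -0.31 in RPF, 37.1% of them were lower in RNA and 21.5% in RPF, and the 4 members had medians of -0.47 and -0.45. In the knockdown, chromosome 7 had a median of -0.05 in RNA and 0.05 in RPF. COX5A lies on chromosome 15, among neighbours at 0.36 in RNA and 0.40 in RPF, and its own changes were 0.25 and 0.27. On chromosome 16 the median RNA change of all tested transcripts was -0.02 and that of the 4 members -0.36, and on chromosome 5 these were 0.11 and -0.18 (6 members).

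**Figure D4:**
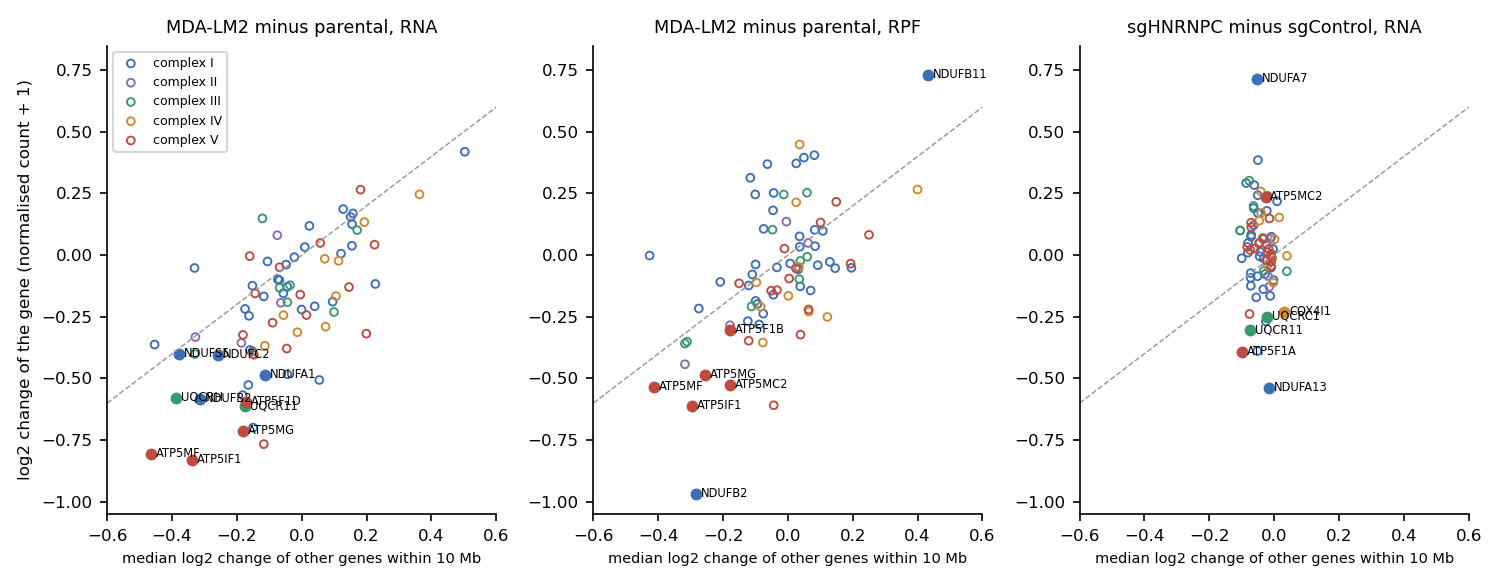
Log2 change of each respiratory chain gene (vertical axis) against the median change of the other tested genes that start within 10 Mb of it (horizontal axis), for MDA-LM2 RNA, MDA-LM2 RPF and knockdown RNA. The dashed line marks equality. Member changes rose with those of their neighbours in MDA-LM2 (r 0.69 and 0.59) and not in the knockdown (r -0.13). Most members lay below the line in MDA-LM2 (63 of 79 in RNA and 52 of 79 in RPF).

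When the neighbourhood median was taken off each library, an alternative chosen after seeing the data, 2 members remained lower in RNA and 0 passed in RPF (12 at an unadjusted p under 0.05), against 1273 of all 10570 transcripts in RNA and 705 of 8212 (8.58%) in RPF. The 2 were ATP5IF1 (-0.48, adjusted p 0.034 by limma) and UQCR11 (-0.43, adjusted p 0.049). NDUFS5 was then at -0.02, NDUFC2 at -0.16, UQCRH at -0.19 and NDUFB2 at -0.25. The RPF changes left were -0.65 for NDUFB2 and -0.32 for ATP5MC2 (both adjusted p 0.10 by limma), -0.29 for ATP5IF1, -0.27 for ATP5MG, -0.13 for ATP5MF, -0.10 for ATP5F1B and 0.32 for NDUFB11. Members still lay below their neighbours more often than above, with a median difference of -0.14 in RNA (63 of 79 below 0) and -0.08 in RPF (52 of 79). What sets the regional values was not tested.

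In the HNRNPC knockdown, the shares of respiratory chain RNAs called were near the background. Of 79 members, 5 (6.33%) were lower and 2 (2.53%) higher in sgHNRNPC, against 6.64% and 3.41% of all 8980 transcripts, and the members' median change was 0.02 against -0.02. ATP5F1A had the smallest p. Its RNA was 1181 and 1112 in sgControl and 902 and 845 in sgHNRNPC, which limma fitted as -0.39 ± 0.06 (SE) with an adjusted p of 6.09e-08. The RPF values overlapped, at 94.5 and 121 against 102 and 105. NDUFA13, a complex I subunit also known as GRIM-19, had RNA of 239 and 259.7 against 176 and 167 (-0.54 ± 0.11, adjusted p 0.00022) and overlapping RPF of 26.0 and 27.4 against 34.7 and 25.6.

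UQCR11 RNA was 369.8 and 381 against 298 and 310.0 (-0.30 ± 0.09, SE, adjusted p 0.013 by limma). It was the only RNA call that both comparisons shared. UQCRC1 RNA was 439 and 445 against 382 and 361 (-0.25 ± 0.08, adjusted p 0.034) and COX4I1 RNA was 779.9 and 723 against 632 and 648 (-0.23 ± 0.07, adjusted p 0.012). For UQCRC1 and COX4I1 the footprints lay higher in sgHNRNPC without passing the test, at 52.7 and 42.9 against 62.9 and 61.8 and at 29.0 and 36.7 against 39.9 and 45.8. The higher RNAs were NDUFA7 (35.0 and 27.9 against 52.1 and 51.7, 0.71 ± 0.25, adjusted p 0.049), whose footprints fell under the minimum, and ATP5MC2 (446 and 415 against 451 and 569, 0.24 ± 0.08, adjusted p 0.040). The ATP5MC2 call rested on sgHNRNPC replicate 2, without which its change was 0.07. Leaving out each library in turn gave 4 calls without sgControl replicate 1, 3 without sgControl replicate 2, 3 without sgHNRNPC replicate 1 and 2 (ATP5F1A and NDUFA13) without sgHNRNPC replicate 2. The shares of all 8980 transcripts called in these fits were 5.89%, 7.72%, 6.60% and 4.47%, against 10.0% with every library.

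In footprints and in TE, 0 members were called in the knockdown by limma, against 0.0233% higher and 0% lower of 4283 transcripts in RPF and 0% in TE. At an unadjusted p under 0.05 there were 2 of 73 members in RPF and 4 in TE, against 329 and 332 of all 4283 transcripts. Logistic regression called 0 members in TE, and no share of all transcripts is given beside that count. The smallest p in RPF belonged to UQCRC2 (44.2 and 30.7 against 50.8 and 64.0, 0.62 ± 0.21, SE, adjusted p 0.47 by limma), the other core protein of complex III, and SDHC (22.7 and 18.6 against 29.2 and 34.7, adjusted p 0.55). In TE, UQCRC1 changed by 0.63 ± 0.19 (p 0.0085, adjusted p 0.57 by limma), COX4I1 by 0.61 ± 0.20 (p 0.015), NDUFA13 by 0.70 ± 0.27 (p 0.028) and SDHC by 0.54 ± 0.21 (p 0.031). With a median standard error of 0.27 for a member's RPF change, changes of that size could not be told from the spread between replicates.

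**Figure D5:**
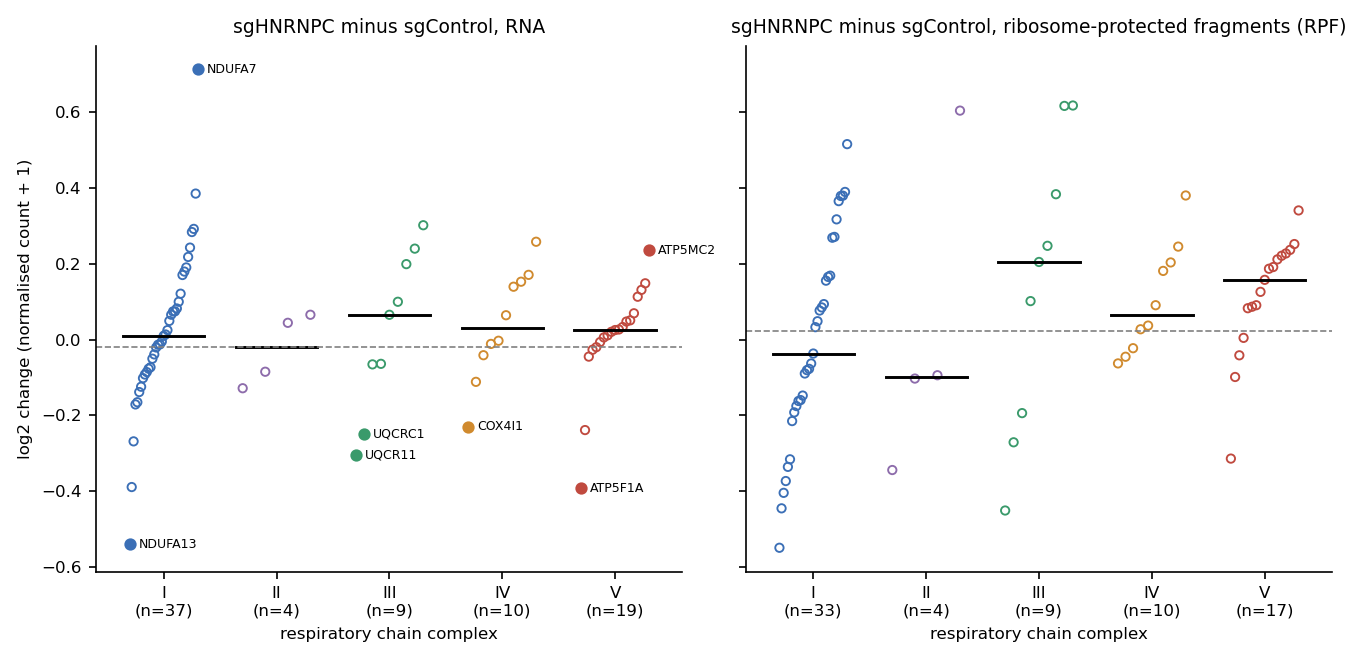
Log2 change of each respiratory chain gene in sgHNRNPC against sgControl cells, by complex, for RNA (left, 79 genes) and RPF (right, 73 genes). Filled points passed the limma test, black bars are complex medians and the dashed line is the median of all transcripts tested (-0.02 and 0.02). Calls are RNA calls, 5 below and 2 above the line.

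Genes around the chain were looked at from fixed lists. Of 49 assembly factors, COA1 and SDHAF3 were lower in MDA-LM2 RNA and 0 were higher, with a median change of -0.11. Of 78 mitochondrial ribosomal protein genes, 4 were higher and 3 lower (median -0.04), and of 74 cytosolic ribosomal protein genes 5 were lower and 0 higher (median -0.25), all beside 10.0% lower and 6.61% higher of all transcripts. Cytochrome c (CYCS) and cytochrome c1 (CYC1), a complex III subunit that the symbol rule does not take, were not called. Among 13 transcriptional regulators of the chain and of mitochondrial DNA, TFAM, which packages mitochondrial DNA, was higher in RNA (331 and 309 against 488 and 540.0, 0.68 ± 0.12, SE, adjusted p 0.0089 by limma) and in RPF (0.88 ± 0.19, adjusted p 0.0016), with neighbours at 0.48 in RNA and 0.20 in RPF. POLRMT, the mitochondrial RNA polymerase, was higher in RNA (639 and 559.6 against 785 and 852, adjusted p 0.040) and in RPF (adjusted p 0.0047). ESRRA, a nuclear receptor of energy metabolism genes, was lower in RNA (690.0 and 629 against 401 and 414, adjusted p 0.0067). HIF1A, the oxygen-regulated factor, was lower in RPF (547 and 579.9 against 372 and 447, adjusted p 0.0011). In the knockdown, 0 of 41 assembly factors and 0 of 10 regulators were called in RNA by limma, against 10.0% of all transcripts. An unadjusted p under 0.05 was found for 4 and 1 of these, and for 2018 of all 8980 transcripts.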

How the data were processed

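The deposited values are a normalised signal (normalised counts per transcript). The authors trimmed footprints with cutadapt 2.3, collapsed molecular identifiers, removed rRNA and tRNA reads, aligned with Bowtie2 2.3.5 to the isoform with the longest coding sequence of each gene, and scaled RNA and RPF libraries separately by median-of-ratios. The methods offer a correction of stalling peaks, and whether these RPF values passed through it is not given in the sources used here. RNA values were whole multiples of a single step per library, from which reads were recovered.

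Symbols and coordinates came from GENCODE version 44 on hg38, which matched 97.9% of transcripts in each table. Values were taken as log2(value + 1) and tested two-sided with limma 3.58.1 in R 4.3.3 (empirical Bayes with trend), RNA over all transcripts listed, RPF and TE over those with means of at least 10 in both, TE as an interaction over the 8 libraries of a table. Calls had a Benjamini-Hochberg adjusted p under 0.05. The fits were tested on simulated data. Tables were scaled apart, so levels were not compared between them. Replicates are biological duplicates, and p-values measure the spread between 2 libraries. The labels give no batch.

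Named were all called members (with up to 12 per comparison), otherwise the 3 smallest p, fixed core, c-subunit and regulatory genes, and called regulators. Members, lists and tests were chosen with earlier results of these data known. Alternatives were the added value, filters, scaling, robust moderation, the replicate number as a block, each library left out, logistic regression for TE, and corrections for GC content and chromosomal neighbourhood.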

Additional observations from a re-analysis of the deposited data

How the results depend on the processing

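Among MDA-LM2 RNA results, the 10 members called became 4 (1 higher) with equal totals, 5 with a minimum mean of 10, 5 (1 higher) after quantile normalisation, 2 after the neighbourhood correction and 2 to 41 with a library left out. The 7 RPF calls became 0 after the neighbourhood correction, and their count ranged from 0 to 9 over all alternatives. The 7 knockdown RNA calls became 2 after quantile normalisation and 2 to 4 with a library left out. Logistic regression called 4 members in MDA-LM2 TE against 0, beside 2.16% of all transcripts. With the replicate number as a block, 19 members (1 higher) were called in MDA-LM2 RNA, against 23.6% of all transcripts (16.6% without the block). Across lines the numbers share only a label: replicate differences correlated at 0.23 in MDA-LM2 RNA, 0.04 in RPF, and 0.00 and 0.03 in the knockdown. RNA and RPF of the same number were taken to share a lysate, which the labels do not state. Their replicate differences correlated at 0.02 in parental, 0.14 in MDA-LM2, -0.01 in sgControl and 0.00 in sgHNRNPC cells. TE computed within each such pair called 0 of 79 and 0 of 73 members by limma (4 and 3 at an unadjusted p under 0.05). It called 0 of all 8393 and 4283 transcripts. Of 42 gene changes followed through these alternatives (those called, those of smallest p and those of regulators), 0 turned direction, but the members' median turned in MDA-LM2 RPF (to 0.00 with equal totals) and in knockdown TE (0.05 to -0.01 after the neighbourhood correction). ATP5IF1 RNA in MDA-LM2 and ATP5F1A and NDUFA13 RNA in the knockdown were called in 14 of 14 settings. The filter and quantile counts have no share of all transcripts beside them. They do not separate a loss of calls among the members from a loss over all transcripts. The causes were not tested. The planned edgeR and DESeq2 fits on recovered reads were not run. GC and neighbourhood corrections were chosen after seeing the data. In the knockdown, 6 members fell under the RPF minimum.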

Other observations

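The enzymes that feed the chain with NADH were counted in the same way. Of 16 measured genes of the citric acid cycle and pyruvate dehydrogenase, 5 were lower and 1 higher in MDA-LM2 RNA by limma (31.3% and 6.25%, against 10.0% and 6.61% of all transcripts), with a median change of -0.05. In RPF 5 were lower and 1 higher, against 7.03% and 5.00% of all tested. Whether these shares differ from those of the chain was not tested. OGDH, the E1 subunit of 2-oxoglutarate dehydrogenase, had RNA of 2185 and 2173 in parental cells and 1180.1 and 994 in MDA-LM2 cells, and RPF of 259 and 252 against 146 and 156. Its log2 changes were -1.01 ± 0.12 and -0.75 ± 0.12 (SE, adjusted p 0.0014 and 1.4e-05 by limma). MDH2, mitochondrial malate dehydrogenase, had RNA of 1353 and 1445 against 795 and 873 (-0.75 ± 0.12, adjusted p 0.0042). DLD, the dehydrogenase subunit shared by several of these complexes, had RNA of 239 and 269.8 against 163 and 189 (-0.53 ± 0.15, adjusted p 0.041). OGDH, MDH2 and DLD lie on chromosome 7, with neighbours within 10 Mb at median RNA changes of -0.50, -0.56 and -0.51.

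The other lower genes were DLAT on chromosome 11 (RNA change -0.66, neighbours -0.19) and IDH3G on chromosome X (-0.64, neighbours -0.36). IDH3A, another subunit of the NAD-dependent isocitrate dehydrogenase that holds IDH3G, was higher (0.57 ± 0.14, adjusted p 0.028 by limma), and its neighbours on chromosome 15 were at 0.47. In the knockdown, 20 of 74 cytosolic ribosomal protein genes were higher in RNA and 0 lower (median change 0.07), and of the 16 genes of the cycle 1 was higher (CS) and 1 lower (PDHB), against 3.41% higher and 6.64% lower of all transcripts.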
